A study of Bos taurus with 15 samples.

Results

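Hypoxia-inducible factors (HIFs) are transcription factors through which cells adjust glycolysis, blood vessel growth and iron handling to the supply of oxygen. An oxygen-regulated alpha subunit (HIF1A, EPAS1 or HIF3A) pairs with a stable partner (ARNT or ARNT2). Prolyl hydroxylases (EGLN1, EGLN2 and EGLN3) mark alpha subunits for the ubiquitin ligase adaptor VHL, and the asparaginyl hydroxylase HIF1AN blunts their activity. The best known regulation of the alpha subunits acts on the protein, which RNA counts do not show. In adipose tissue the pathway is known for its links to tissue expansion, vessel growth, inflammation and fibrosis. The HIF3A protein lacks part of the activating region of the other alpha subunits, and some of its isoforms restrain HIF activity.

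These 10 genes were taken by name from the 13896 genes listed for subcutaneous fat of the dewlap of primiparous Prim Holstein dairy cows. HIF3A was chosen by its normalised exon and whole gene counts at -4 wkpp and MNEB 1 wkpp, and the other 9 as members of its pathway, with earlier results of these data known. Total RNA was sequenced in 15 libraries, 3 for each of 5 groups named by weeks peripartum (wkpp). The -4 wkpp cows were sampled 1 month before calving, before the diets began. The other groups came from cows with severe negative energy balance (SNEB) on the low energy diet or moderate negative energy balance (MNEB) on the high energy diet, each at 1 and 16 wkpp. The study selected these cows for their energy balance, so that the groups are the ends of a range rather than a cross-section of the herd. The same cows could be sampled repeatedly, but the tables do not tie a library to a cow, and nothing was paired. Libraries were numbered 1 to 3 within a group from the largest to the smallest exon size factor, which is only a name.

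Values are normalised read counts: the exon reads of a gene, or its whole gene reads with introns included, divided by a library's size factor. A normalised count tells libraries apart for 1 gene. It is not per length, so levels were not compared between genes. A gene was called where limma gave an adjusted p below 0.01 in both the exon and the whole gene analysis with the same sign. Fold changes are on the log2(normalised count + 1) scale, first group minus second, with the standard error (SE), and 3 libraries stand on each side. In these bulk samples, fewer cells of a type and less RNA per cell cannot be told apart.

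The MNEB libraries stood apart. They held 2027524 to 7484367 exon reads on genes, against 7989920 to 14632181 in the other 9 libraries. Added ERCC spike-in RNA took 17.3% to 62.7% of their exon and spike-in reads, against 1.29% to 9.19% elsewhere. Both measures move with every contrast of an MNEB group with another group, where they and the group cannot be told apart. The fat marker PLIN1, a lipid droplet protein, had 2992 to 25470 normalised exon counts in every library, and 8 of 10 adipocyte markers were measured. ADIPOQ and PLIN4 were not among the names analysed here. The summed skeletal muscle markers, 10 of 10 measured, reached 1179 to 4128 in the MNEB libraries and 97.8 to 365 in the others.

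HIF3A had its lowest mean before calving and its highest in MNEB cows just after calving. At -4 wkpp the 3 libraries had 163, 66.6 and 230 normalised exon counts, a mean of 153 ± 82.1 (SD, n = 3). At MNEB 1 wkpp they had 2483, 4834 and 1919, a mean of 3079 ± 1546 (SD, n = 3). Every MNEB 1 wkpp library was thus far above every -4 wkpp library, by 20.1-fold between the means. On the log2 scale the difference, -4 wkpp minus MNEB 1 wkpp, was -4.38 ± 0.46 (SE). In whole gene reads the -4 wkpp libraries had 416, 125 and 396 normalised counts and the MNEB 1 wkpp libraries 3931, 6002 and 2146, a 12.9-fold difference between means. This contrast chose the gene, so these values are a description with no test. It was the only one of the 10 genes called here, where 2.94% of the 10649 genes tested were called, and nothing is read from that count. Vessel endothelium markers were higher with HIF3A, at 22131 to 28078 summed normalised counts at -4 wkpp and 39593 to 75787 at MNEB 1 wkpp, as were the skeletal muscle markers given above. Fibroblast and preadipocyte markers went the other way, at 61995 to 73895 and 6758 to 14733, as did lymphatic endothelium markers at 2800 to 3376 and 500.5 to 941, and mast cell markers, 3 of 4 measured, at 2752 to 4427 and 273 to 434. No measured marker of these lists was at 0 in all libraries, and their part in the HIF3A values was not tested.

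The other 3 groups spread between these ends. The SNEB 1 wkpp libraries had 1699, 193 and 1995 normalised exon counts of HIF3A, a mean of 1296 ± 966 (SD, n = 3). The MNEB 16 wkpp libraries had 1226, 324 and 1373, a mean of 974 ± 568 (SD, n = 3). At SNEB 16 wkpp the values were 515, 515 and 69.7, a mean of 366 ± 257 (SD, n = 3). In each of these groups 1 library was far lower than its partners, by 10.3-fold at SNEB 1 wkpp between the highest and the lowest. Whole gene reads showed the same low libraries, with 3739, 406 and 3850 normalised counts at SNEB 1 wkpp, 1844, 549 and 2180 at MNEB 16 wkpp and 791, 869 and 163 at SNEB 16 wkpp. The order of the means was MNEB 1, SNEB 1, MNEB 16, SNEB 16 and -4 wkpp, and the libraries of every pair of neighbours in that order overlapped. Across all 15 libraries the highest value was 72.6-fold the lowest, and each rested on 108 to 3143 exon reads.

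**Figure D1:**
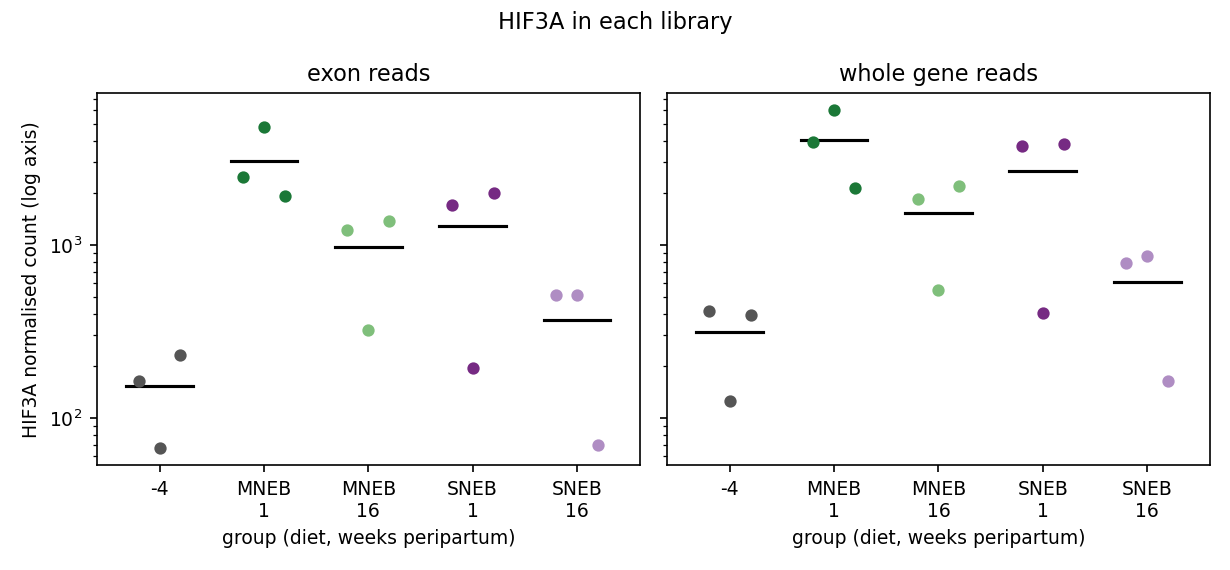
HIF3A in each of the 15 libraries: points are libraries of the 5 groups, drawn as normalised counts on a log axis for exon and for whole gene reads, with bars at the group means. The -4 wkpp exon values lie between 66.6 and 230 and the MNEB 1 wkpp values between 1919 and 4834, while the other groups each hold 1 low library.

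Comparisons that share libraries with the choosing contrast are given without a test. Between -4 and SNEB 1 wkpp the log2 difference in HIF3A was -2.67 ± 0.85 (SE), 8.45-fold between means, and the groups overlapped because of SNEB 1 wkpp library 2. Without that library the difference was -3.75. MNEB 1 wkpp minus MNEB 16 wkpp gave 1.80 ± 0.53 (SE) on the log2 scale, 3.16-fold between means, and 1.13 without MNEB 16 wkpp library 2. SNEB minus MNEB at 1 wkpp gave -1.71 ± 0.77 (SE) in exon reads and -1.04 ± 0.84 (SE) in whole gene reads. Without SNEB 1 wkpp library 2 it was -0.63 in exon reads and 0.04 in whole gene reads, where the sign turned. The MNEB 1 and 16 wkpp libraries did not overlap in exon reads but did in whole gene reads, and in the other 2 comparisons they overlapped in both.

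The remaining 2 comparisons share no library with it. HIF3A was 3.54-fold higher in mean at SNEB 1 than at SNEB 16 wkpp, a log2 difference of 1.71 ± 1.02 (SE), with a 95% interval of -0.63 to 4.05. It did not pass the test (limma adjusted p = 0.704 in exons and 0.694 in whole genes). The value was 2.79 without SNEB 1 wkpp library 2 and 0.75 without SNEB 16 wkpp library 3, the low library of each group. At 16 wkpp SNEB minus MNEB gave -1.62 ± 0.78 (SE), with an interval of -3.39 to 0.15, and limma adjusted p = 0.159 and 0.209. This difference was -0.67 without SNEB 16 wkpp library 3 and -2.29 without MNEB 16 wkpp library 2. The intervals run from near no difference to a large one, so the size of HIF3A differences outside the choosing contrast was poorly fixed by 3 libraries.

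HIF1A, the alpha subunit best known for induction of glycolytic genes, followed another order, with the SNEB groups highest. The SNEB 1 wkpp libraries had 3847, 2662 and 3781 normalised exon counts and the MNEB 1 wkpp libraries 1951, 1786 and 761. All SNEB values were above all MNEB values, and the log2 difference was 1.29 ± 0.35 (SE), 2.29-fold between means, with a 95% interval of 0.49 to 2.09. It missed the call threshold (limma adjusted p = 0.0358 in exons and 0.0675 in whole genes). At 16 wkpp the SNEB libraries had 4011, 3329 and 2515 and the MNEB libraries 1766, 1874 and 1470. Again the groups did not overlap, with a log2 difference of 0.93 ± 0.21 (SE), an interval of 0.45 to 1.40, and limma adjusted p = 0.0127 and 0.0443. HIF1A therefore passed a threshold of 0.05 in both analyses at 16 wkpp, and at 1 wkpp it passed 0.01 only when all 15 libraries shared 1 fit. The -4 wkpp libraries, at 2499, 2110 and 2064, lay below every SNEB 1 wkpp library and, in exon reads only, above every MNEB 1 wkpp library, with log2 differences of -0.61 ± 0.19 (SE; limma adjusted p = 0.173 and 0.176) and 0.68 ± 0.33 (SE; adjusted p = 0.151 and 0.241).

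Several marker lists moved the same way as HIF1A in the contrasts of SNEB with MNEB. Of 9 listed macrophage markers 7 were measured and none was at 0. Their summed normalised count was 11470 to 24982 at SNEB 1 wkpp and 2545 to 9482 at MNEB 1 wkpp. At 16 wkpp the range was 21687 to 27003 in SNEB and 2674 to 3557 in MNEB libraries. Summed adipocyte, fibroblast, lymphatic endothelium and mast cell markers were likewise higher in all SNEB than in all MNEB libraries at both times. Not every single marker did so. By log2 difference, 6 of 8 adipocyte markers were higher in SNEB and 2 lower at 1 wkpp. At 16 wkpp 5 were higher and 3 lower, and of 4 fibroblast markers 3 were higher and 1 lower. At 1 wkpp the adipocyte sum was 74294 to 89811 against 21849 to 58882, the fibroblast sum 34649 to 53809 against 6758 to 14733, and the lymphatic sum, 5 of 6 markers, 2490 to 4732 against 500.5 to 941. Other lists went against HIF1A. Summed skeletal muscle markers were 116 to 318 in SNEB and 1179 to 4128 in MNEB libraries at 1 wkpp. At 16 wkpp they were 236 to 340 and 1718 to 3799. Summed smooth muscle and pericyte markers were also lower in SNEB at 16 wkpp, at 10591 to 22253 against 27180 to 66846. So was the vessel endothelium sum, at 26121 to 29490 against 29503 to 42563. The part of these lists in the HIF1A values was not tested.

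EPAS1, the alpha subunit prominent in endothelium, was lowest at SNEB 16 wkpp. Its normalised exon counts there were 2006, 2088 and 1642, against 3913, 3474 and 4523 at SNEB 1 wkpp. The groups did not overlap in either analysis, and the log2 difference was 1.05 ± 0.17 (SE), 2.08-fold between means, with a 95% interval of 0.66 to 1.45. It did not pass the test over all genes (limma adjusted p = 0.333 and 0.694). The -4 wkpp libraries had 2774, 3394 and 3227, all below the SNEB 1 wkpp libraries, with a log2 difference of -0.34 ± 0.17 (SE) and adjusted p = 0.408 and 0.238 by limma. MNEB 1 wkpp libraries spread widely, at 8021, 3864 and 3187, and MNEB 16 wkpp libraries had 4517, 3385 and 2204. SNEB minus MNEB at 16 wkpp gave -0.76 ± 0.26 (SE), with limma adjusted p = 0.0585 and 0.071. Summed blood vessel endothelium markers, 10 of 10 measured and none at 0, were 33936 to 42547 at SNEB 1 wkpp and 26121 to 29490 at SNEB 16 wkpp, and 22131 to 28078 at -4 wkpp. Summed adipocyte markers also moved with EPAS1 in these groups, at 74294 to 89811, 43706 to 50487 and 49475 to 59574 in the same order. The single adipocyte markers were split, however. By log2 difference, 4 of 8 were higher and 4 lower at -4 than at SNEB 1 wkpp. Against SNEB 16 wkpp, 6 were higher and 2 lower at SNEB 1 wkpp. Fibroblast and preadipocyte markers, 4 of 6 measured and none at 0, moved against EPAS1. Their sums were 34649 to 53809, 68406 to 77298 and 61995 to 73895. The part of these lists in the EPAS1 values was not tested.

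**Figure D2:**
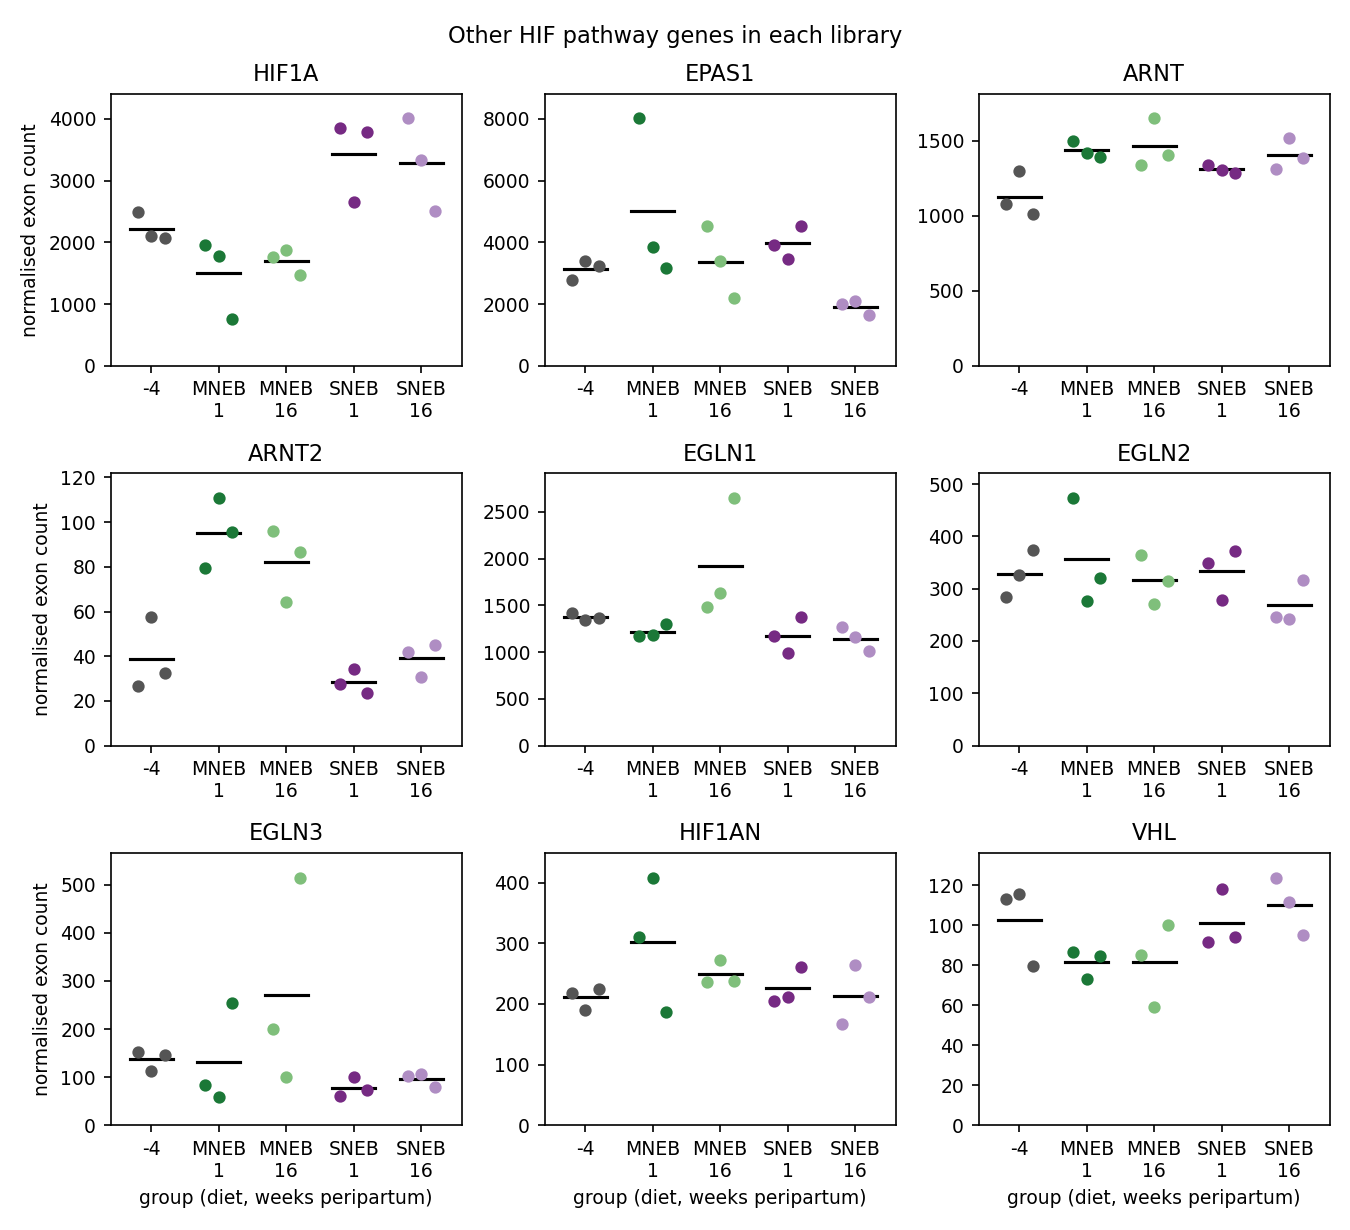
The 9 HIF pathway genes other than HIF3A in the 15 libraries: 1 panel per gene, points are normalised exon counts by group on linear axes from 0, with bars at the group means. In HIF1A the SNEB libraries (2515 to 4011) sit above the MNEB libraries (761 to 1951), EGLN3 spans 8.65-fold between its highest and lowest library, and ARNT 1.63-fold.

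The partner subunits differed from each other. ARNT, the common partner of all alpha subunits, ranged only from 1014 to 1650 normalised exon counts over the 15 libraries. Its lowest group mean was 1129, at -4 wkpp (1077, 1296 and 1014), and its highest 1463, at MNEB 16 wkpp (1336, 1650 and 1403). Between -4 and MNEB 1 wkpp (1499, 1419 and 1389) the exon libraries did not overlap, but the log2 difference was -0.35 ± 0.20 (SE) in exons and 0.26 ± 0.20 (SE) in whole genes, so that the sign depended on which reads were counted (limma adjusted p = 0.201 and 0.434). ARNT2, a close relative best known from neural tissue, was low, at 25 to 98 exon reads in a library. The MNEB 1 wkpp libraries had 79.2, 111 and 95.6 normalised exon counts of ARNT2, against 27.6, 34.1 and 23.5 at SNEB 1 wkpp and 26.5, 57.4 and 32.7 at -4 wkpp. SNEB was below MNEB in all libraries at 1 wkpp, with a log2 difference of -1.71 ± 0.35 (SE), a 95% interval of -2.51 to -0.92, and limma adjusted p = 0.0139 in exons and 0.0566 in whole genes. At 16 wkpp the SNEB libraries had 42.1, 30.6 and 45.2 and the MNEB libraries 95.9, 64.3 and 86.7, with limma adjusted p = 0.0337 and 0.263. From 54.5% to 90.3% of ARNT2 whole gene reads lay outside exons, so that most of its whole gene signal was not exonic in any library.

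Of the hydroxylases, EGLN1, the main oxygen sensor of the pathway, was highest at MNEB 16 wkpp. Its libraries there had 1485, 1635 and 2648 normalised exon counts, while the other 12 libraries lay between 988 and 1415. Neither comparison in which MNEB 16 wkpp stood apart passed the test. MNEB 1 minus MNEB 16 wkpp gave a log2 difference of -0.61 ± 0.25 (SE), with limma adjusted p = 0.352 and 0.384. SNEB minus MNEB at 16 wkpp gave -0.71 ± 0.23 (SE), with limma adjusted p = 0.0512 and 0.0686. Without MNEB 16 wkpp library 3 these values were -0.35 and -0.45.

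EGLN3, a hydroxylase whose gene is itself a HIF target, had its highest value in the same library. The MNEB 16 wkpp libraries had 199.6, 100.2 and 515 normalised exon counts of EGLN3, the SNEB 16 wkpp libraries 103, 107 and 80.0, and the SNEB 1 wkpp libraries 61.1, 100.2 and 73.8. MNEB 1 wkpp libraries had 84.5, 59.4 and 254, and those at -4 wkpp 153, 112 and 146. The groups overlapped in each comparison, except that in exon reads all -4 wkpp libraries were above all SNEB 1 wkpp libraries, by 0.81 ± 0.26 (SE) on the log2 scale (limma adjusted p = 0.172 and 0.492). SNEB minus MNEB at 16 wkpp gave a log2 difference of -1.18 ± 0.49 (SE), with limma adjusted p = 0.113 and 0.166, and -0.56 without MNEB 16 wkpp library 3.

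The other 3 regulators were nearly flat. EGLN2 ranged from 242 to 473 normalised exon counts over the libraries, HIF1AN from 166 to 408 and VHL from 59.1 to 124. Their highest group means were 1.33, 1.43 and 1.35 times their lowest, and the libraries of the groups overlapped in exon or whole gene reads in every comparison. In exon reads alone, VHL was higher in all SNEB than in all MNEB libraries at 1 wkpp, by 0.31 ± 0.28 (SE) on the log2 scale (limma adjusted p = 0.471). As few as 23 VHL exon reads were counted in a library.

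**Figure D3:**
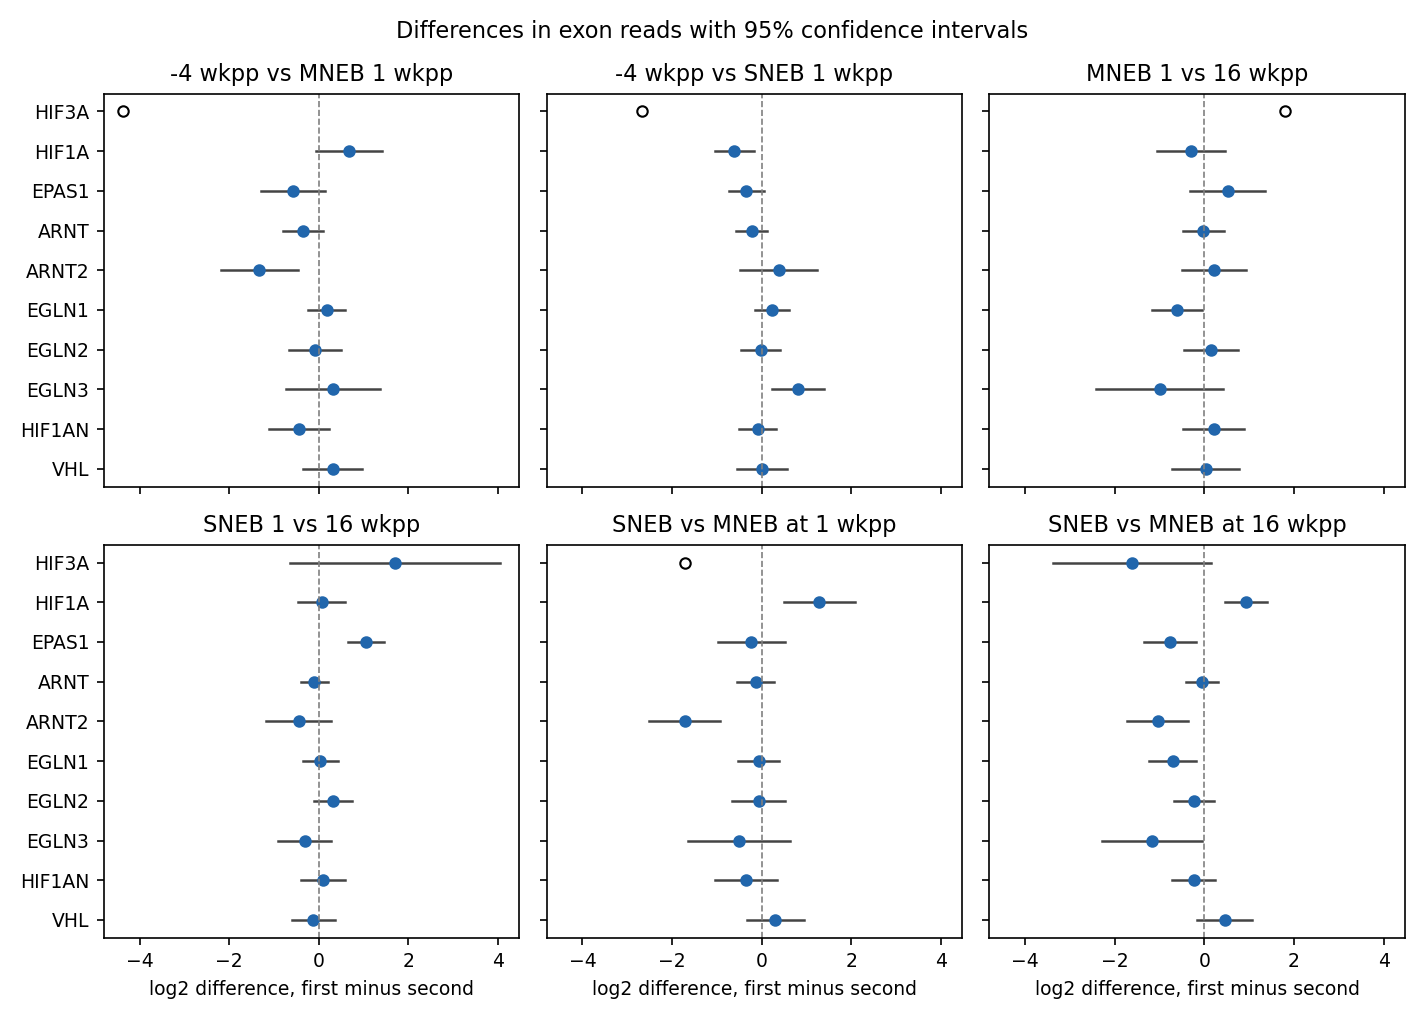
Log2 difference of each of the 10 genes in the 6 comparisons, first group minus second: filled points are exon estimates with the 95% intervals of the limma fit as lines, and open points are HIF3A values given without an interval, in comparisons that chose it or share libraries with that contrast. HIF1A lies to the right of 0 in SNEB against MNEB at both times (1.29 and 0.93), while the HIF3A interval in SNEB 1 against 16 wkpp runs from -0.63 to 4.05.

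Outside the choosing contrast none of the 10 genes was called in any comparison. Few genes of any kind were called in most of these comparisons. Limma called 0.0878% of the genes tested between -4 and SNEB 1 wkpp, 0% between MNEB 1 and 16 wkpp, 0% between SNEB 1 and 16 wkpp and 0% between SNEB and MNEB at 1 wkpp. Between SNEB and MNEB at 16 wkpp it called 4.4%. With HIF3A left out where the choosing contrast shares libraries, an unadjusted exon p under 0.05 was reached by 1 of 9 genes between -4 and MNEB 1 wkpp, against 42.1% of all genes. The corresponding counts were 2 of 9 against 15.2% (-4 and SNEB 1 wkpp), 1 of 9 against 13.2% (MNEB 1 and 16 wkpp) and 1 of 10 against 7.61% (SNEB 1 and 16 wkpp). Between SNEB and MNEB they were 2 of 9 against 34.5% at 1 wkpp and 5 of 10 against 38.8% at 16 wkpp. Limma with voom weights also called 0 of these genes in each of the comparisons.

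Genes whose libraries did not overlap between groups in both analyses were counted over all 10, HIF3A included. Between -4 and MNEB 1 wkpp the 1 of 10 was HIF3A itself, in the contrast that chose it, and nothing is read from it beside 30.6% of all genes. Between -4 and SNEB 1 wkpp it held for 2 of 10 (HIF1A and EPAS1, both lower at -4 wkpp), against 11.6% of all genes in either direction and 5.44% in this one. Within MNEB it held for 1 of 10 (EGLN1), against 11.7%, and within SNEB for 1 of 10 (EPAS1), against 7.17%. Between SNEB and MNEB it held for 2 of 10 at 1 wkpp (HIF1A and ARNT2), against 25.9%, and for 2 of 10 at 16 wkpp (HIF1A and EGLN1), against 31% of all genes.

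Whether the change from 1 to 16 wkpp differed between SNEB and MNEB was fitted over 12 libraries. Limma called 0% of 10337 genes, and 626 of them, 6.06%, had an unadjusted exon p under 0.05. Of the 9 genes other than HIF3A, 0 reached that in exons and 2, ARNT2 and EGLN1, in whole genes, where 7.81% of all genes did. ARNT2 gave a log2 difference of changes of -1.70 ± 0.74 (SE) in whole genes and -0.67 ± 0.43 (SE) in exons, with limma adjusted p = 0.63 and 0.895. EGLN1 gave a log2 difference of changes of 0.65 ± 0.31 (SE), with a 95% interval of -0.02 to 1.31 and limma adjusted p = 0.825 in exons, and 0.70 ± 0.32 (SE) in whole genes. For HIF3A the value was -0.09 ± 1.28 (SE), with an interval of -2.85 to 2.67, given without a test because the MNEB 1 wkpp libraries enter it.

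The share of whole gene reads that lay outside the annotated exons was another readout. For HIF3A it was 42.0% to 61.9% at -4 wkpp, 50.2% to 54.6% at SNEB 1 wkpp and 41.2% to 57.5% at SNEB 16 wkpp. It was 12.0% to 35.1% at MNEB 1 wkpp and 21.5% to 35.4% at MNEB 16 wkpp. All MNEB libraries thus lay below all others in HIF3A, and the high SNEB 1 wkpp libraries kept the share of the low ones. HIF1AN behaved likewise, at 17.9% to 32.1% in MNEB and 37.7% to 51.9% in the other libraries. All 6 MNEB libraries lay below all 9 others in 12% of the 10257 genes compared. In comparisons of 3 against 3 libraries, the share was higher at -4 than at MNEB 1 wkpp without overlap in 20.8% of all genes, and higher in SNEB than MNEB in 22.5% at 1 wkpp and 36.5% at 16 wkpp. Over all genes together the share was 39.8% to 52.6% in MNEB libraries and 45.7% to 59.5% in the others.

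**Figure D4:**
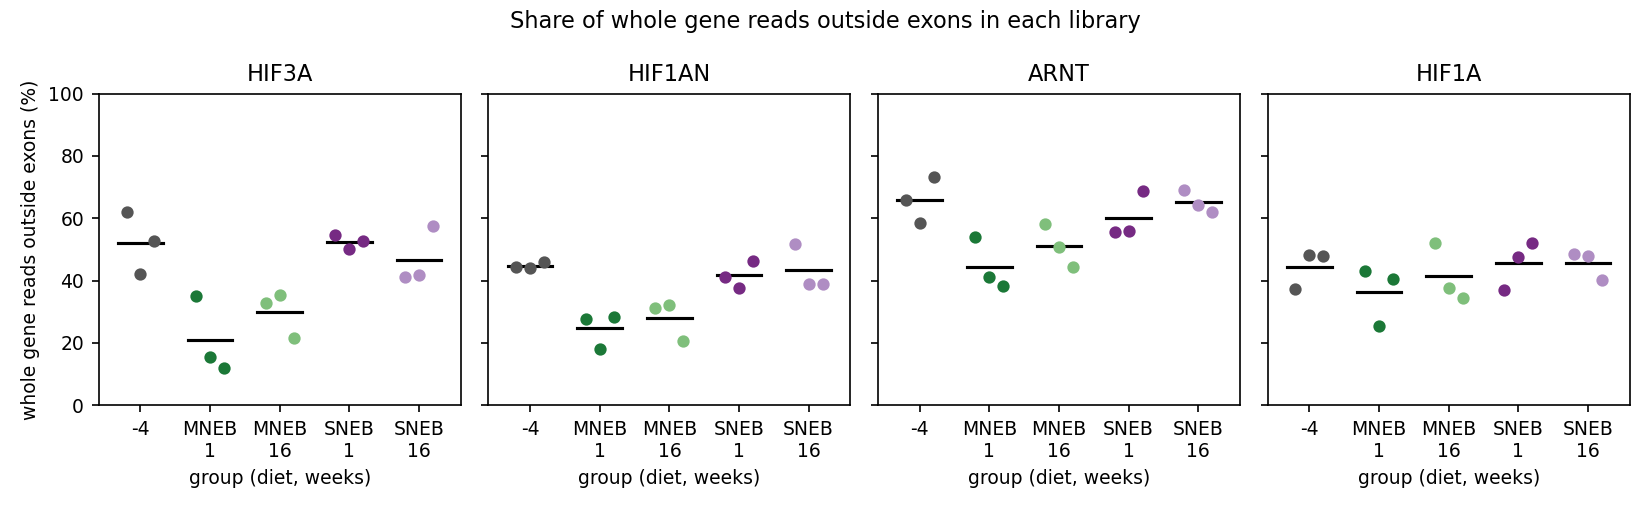
Share of whole gene reads outside exons, in percent, for HIF3A, HIF1AN, ARNT and HIF1A: each point is 1 of the 15 libraries, placed by group, with bars at the group means. In HIF3A the MNEB libraries lie between 12.0% and 35.4% and all others between 41.2% and 61.9%.

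Of 58 listed genes known as HIF targets, 51 were in the tables. Between -4 and MNEB 1 wkpp, 50 were tested and 3 were called, 2 higher and 1 lower at -4 wkpp, against 1.67% and 1.27% of all genes in these directions. LOX, a collagen cross-linking enzyme, had 2751, 1939 and 2453 normalised exon counts at -4 wkpp and 468, 397 and 393 at MNEB 1 wkpp, and was higher at -4 wkpp by 2.49 ± 0.21 (SE) on the log2 scale (limma adjusted p = 8.7e-05 and 0.00304). ALDOA, a glycolytic aldolase, had 10342, 11115 and 8809 against 1935, 2537 and 3444, a log2 difference of 1.97 ± 0.25 (SE) with limma adjusted p = 0.000573 and 0.00945. ADM, which encodes the vasodilator peptide adrenomedullin, went the way of HIF3A: it had 1124, 1331 and 1767 against 10015, 7447 and 4301, a log2 difference of -2.31 ± 0.32 (SE) with limma adjusted p = 0.000755 and 0.00945. Over the 15 alternatives run for each gene, the values stayed within 2.32 to 2.63, 1.76 to 2.18 and -2.64 to -2.03 in that order, but with any 1 library left out the calls held in only 1, 0 and 1 of 6 fits. The calls of ALDOA and ADM were also lost with no filter and with voom weights, and that of ADM with the authors' size factors. Without overlap, 17 of the 50 targets were higher at -4 wkpp, against 14.8% of all genes, and 7 were lower, against 15.8%. Both sides were named after their values were seen. The 17 were ALDOA, ENO1, GAPDH, LDHA, PGAM1, PGK1, TPI1 and PDK1 of glucose metabolism, LOX, P4HA2 and PLOD2 of collagen maturation, and ANKRD37, BHLHE40, BNIP3L, DDIT4, SLC16A3 and TFRC. The 7 were ADM, VEGFA, FLT1, NOS3, PDGFB, PFKFB3 and BNIP3, while the vascular receptor genes KDR and TEK overlapped between the groups. The median log2 difference of the targets was 0.40, against 0.03 over all genes.

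Fibroblast and preadipocyte markers, 4 of 6 measured and none at 0, moved with LOX, at 61995 to 73895 summed normalised counts at -4 wkpp and 6758 to 14733 at MNEB 1 wkpp. Vessel endothelium markers moved with NOS3, VEGFA, FLT1 and PDGFB, at 22131 to 28078 and 39593 to 75787. Their part in the target values was not tested.

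At 16 wkpp LOX was higher in SNEB, with 1841, 2402 and 2209 normalised exon counts against 317, 486 and 753 in MNEB, a log2 difference of 2.13 ± 0.29 (SE) and limma adjusted p = 0.00135 and 0.00859. NOS3, the endothelial nitric oxide synthase, was lower in SNEB, with 272, 271 and 268 against 758, 1033 and 950 and a log2 difference of -1.74 ± 0.17 (SE). PDGFB, a growth factor that recruits pericytes to vessels, was lower too, with 405, 501 and 465 against 1126, 1126 and 885 and a log2 difference of -1.19 ± 0.17 (SE). NOS3 and PDGFB had limma adjusted p = 0.000561 and 0.0018 in exons and 0.0039 and 0.00887 in whole genes. Over all 15 alternatives the values stayed within 1.82 to 2.44 for LOX, -1.87 to -1.65 for NOS3, and at -1.11 or lower for PDGFB, and with any 1 library left out the calls held in 1, 1 and 0 of 6 fits. The calls of LOX and PDGFB were also lost with no filter, those of NOS3 and PDGFB with all 15 libraries in the fit, and that of PDGFB with voom weights. These 1 of 50 targets higher and 2 lower in SNEB compare with 1.59% and 2.81% of all genes. Summed fibroblast markers were 68406 to 77298 in SNEB and 9991 to 23568 in MNEB libraries at 16 wkpp. Summed vessel endothelium markers were 26121 to 29490 and 29503 to 42563. By log2 difference, however, 6 of the 10 vessel markers were higher in SNEB and 4 lower. Smooth muscle and pericyte markers summed to 10591 to 22253 in SNEB and 27180 to 66846 in MNEB, and 6 of 6 were lower in SNEB. The part of these lists in the target values was not tested. Limma called none of the targets in the other 4 comparisons, in which the medians of the target list ranged from -0.40 (MNEB 1 minus 16 wkpp) to 0.50 (SNEB minus MNEB at 1 wkpp), with medians over all genes of 0.03 and 0.04.

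A list of 42 other regulators of HIFs and relatives of their gene family had 33 genes in the tables. At 16 wkpp 1 of 30 tested was called higher in SNEB and 2 lower, against 1.59% and 2.81% of all genes. OS9, an endoplasmic reticulum lectin, had 4487, 4448 and 3927 normalised exon counts in SNEB and 1799, 2193 and 1738 in MNEB, a log2 difference of 1.17 ± 0.17 (SE). AJUBA, a scaffold protein, had 246, 253 and 207 against 799, 1015 and 796, a log2 difference of -1.88 ± 0.18 (SE), and the ubiquitin protease USP20 had 659, 729 and 622 against 1796, 1779 and 2429, a difference of -1.57 ± 0.18 (SE). Limma adjusted p was at most 0.00209 in exons and 0.00908 in whole genes for the 3 genes. With any 1 library left out, the calls of OS9, AJUBA and USP20 held in 0, 4 and 1 of 6 fits, and that of OS9 was also lost with no filter, with voom weights and with all 15 libraries in the fit. In the other 5 comparisons limma called none of this list.

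The targets also showed where single libraries stood out, a pattern looked for after the values were seen. MNEB 16 wkpp library 3, the one with the highest EGLN1 and EGLN3, had the highest value of the 15 libraries in 19 of 50 targets, 38%, against 7.53% of all 10455 genes. EGLN1 and EGLN3 are themselves among the 19, and without them the count was 17 of 48. Among the 17 were the glucose transporters SLC2A1 and SLC2A3 and the glycolytic genes HK1, PFKL, PFKP, TPI1, GAPDH, PGK1, PGAM1, ENO1 and LDHA. It also had the lowest summed adipocyte markers, at 10927 against 21849 or more in every other library. MNEB 1 wkpp library 1 had the highest value in 9 of 50 targets, 18%, against 7.9% of all genes, and these held VEGFA, FLT1, KDR, TEK, NOS3 and PDGFB. The same library had the lowest value in 10 of 50 targets, against 9.04% of all genes. It also had the highest EPAS1 and the highest summed blood vessel endothelium markers of the 15 libraries, at 75787, with 56049 next. KDR and TEK belong both to the targets and to these markers, so the sum and the targets are not separate here. The part of that sum in these values was not tested.

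SNEB 1 wkpp library 2, the one with low HIF3A, was likewise described after its values were seen. HIF3A was 8.80-fold below the lower of the other 2 libraries of its group. VEGFA, the main vascular growth factor, was 5.15-fold below it, at 593 against 3052 and 3194 normalised exon counts. ADM was 2.72-fold below it, at 3838 against 10421 and 12418. At least 2-fold below both other libraries were 6 of 49 targets, 12.2%, against 1.93% of all genes. This library had 13556791 exon reads on genes, close to the 13536724 of library 1 of its group. Summed markers of 5 lists were lowest or highest in it among the 3 libraries of its group. Those of adipocytes, lymphatic endothelium, smooth muscle and pericytes, keratinocytes, red blood cells and Schwann cells lay between its partners. With 3 libraries a place at either end is common, so nothing is read from the count of lists. Vessel endothelium markers were lowest, at 33936 against 42547 and 42241 normalised counts. Macrophage markers were highest, at 24982 against 15956 and 11470, as were mast cell markers at 3079 against 1569 and 1132. Fibroblast and preadipocyte markers, at 53809 against 46111 and 34649, and skeletal muscle markers, at 318 against 116 and 289, were highest too. Their part in the low HIF3A, VEGFA and ADM values was not tested.

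**Figure D5:**
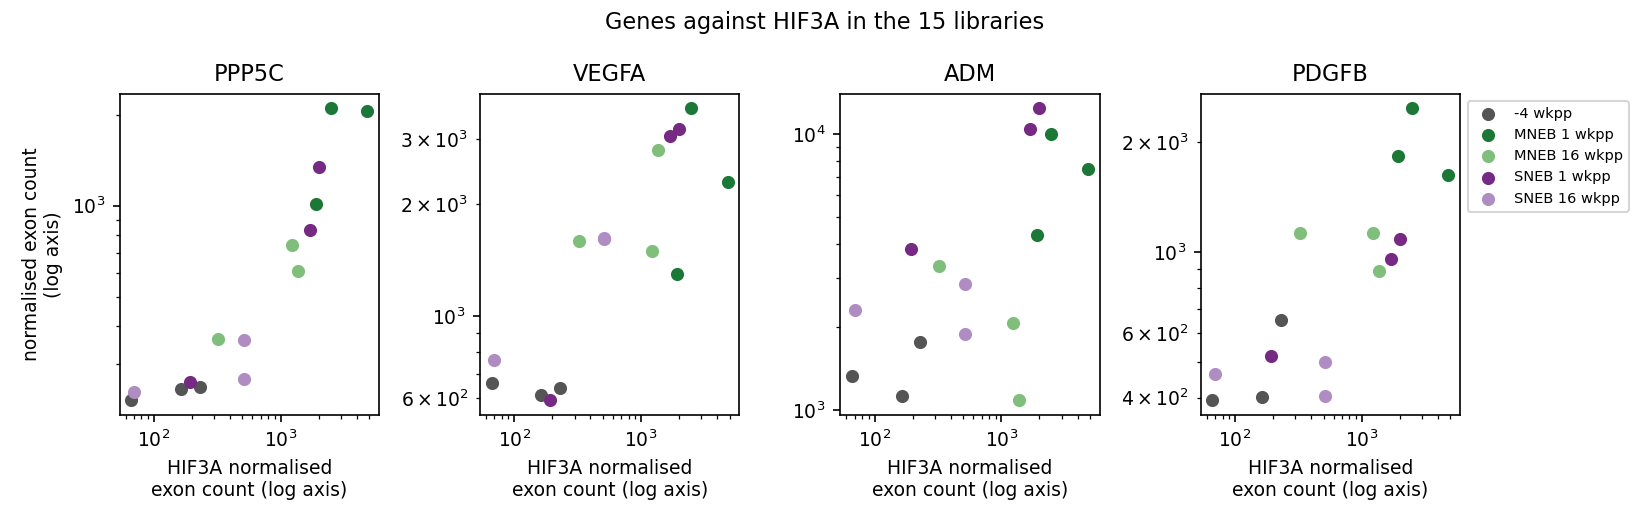
HIF3A against 4 other genes over the 15 libraries: each point is a library, coloured by group, with normalised exon counts on log axes. PPP5C lies closest to a line with HIF3A (r = 0.92), followed by VEGFA (0.85), PDGFB (0.82) and ADM (0.64).

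The gene patterns most like HIF3A were sought by Pearson's r of log2 normalised exon counts over the 15 libraries, among 7951 genes, with r of at least 0.8 in whole gene reads. The libraries share 5 groups and their depth, so r is a description and has no test. The first 5 were CSRP2BP (r = 0.92), PPP5C (0.92), NUDT17 (0.92), MDN1 (0.92) and PTH1R (0.87). PPP5C, a serine/threonine protein phosphatase, is the gene next to HIF3A in the RefSeq annotation of ARS-UCD2.0, another assembly than that of the counts. Its normalised exon counts were 228 to 252 at -4 wkpp, 2100, 2054 and 1015 at MNEB 1 wkpp, 744, 362 and 607 at MNEB 16 wkpp, 833, 262 and 1346 at SNEB 1 wkpp and 362, 268 and 243 at SNEB 16 wkpp. The SNEB 1 wkpp library low in HIF3A was thus low in PPP5C. Its r with HIF3A was also 0.92 in whole gene reads. If reads of one gene ran into the other, the counts of these neighbours could not be told apart, which was not tested. Other near measured genes on the side of PPP5C gave r of -0.36 (CCDC8), -0.12 (CALM3) and -0.28 (SLC1A5). On the other side the 5 nearest gave 0.70 (NOVA2), 0.73 (SYMPK), 0.27 (SIX5), -0.73 (QPCTL) and -0.05 (SNRPD2).

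Among the HIF genes and targets, VEGFA had the highest r with HIF3A, 0.85, and stood at rank 37 of all genes compared. PDGFB (0.82) and FLT1 (0.78) came next. EPAS1 had r = 0.51, HIF1A -0.20 and EGLN3 0.01. CXCL12, a chemokine, had -0.92.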

How the data were processed

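RNA was sequenced from stranded, ribosome-depleted libraries, with ERCC spike-ins. Per the labels and the study's methods, the authors used bcl2fastq 2.15.0, cutadapt 1.3, TopHat2 (bosTau8), HTSeq and DESeq2, counting exons and whole genes separately; the strand setting of the counting is not given in the sources used here. The 6 deposited tables hold, for each comparison, the authors' mean of the normalised counts of 6 libraries, and the authors' fold changes, errors, statistics, p-values and adjusted p-values, none of which was used.

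The whole-number counts of the 15 libraries were solved from the 15-digit means (Python 3.11.15, numpy 2.4.6, sympy 1.14.0), since each library's counts enter several tables with known weights. For 13891 of 13896 genes a solution was found in each analysis, with a largest relative residual of 6.4e-15; COL1A1, COL1A2, COL3A1, FN1 and RN7SL1 were left out. The method was tested on simulated counts. A library's group followed from the tables holding it, but its GEO sample did not. Per the labels the RNA of a group came from 3 cows, so p-values measure the spread between cows and libraries together.

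Counts were divided by median-of-ratios size factors over 15 libraries. Genes with a mean of at least 10 were tested on log2(normalised count + 1) with limma 3.58.1 (R 4.3.3, trend) over 6 libraries per comparison, with Benjamini-Hochberg adjustment over all genes tested. Count models were not run. An exact permutation test of 3 against 3 cannot go below p = 0.1 and was not used. Named genes were all 10 HIF pathway genes, the 3 called HIF targets or regulators with the largest change in each direction per comparison (mean of at least 100), and the 5 genes most like HIF3A. Genes and lists were chosen with earlier results of these data known. Depth was 2027524 to 14632181 exon reads per library, and no interval for counting error is given beside the spread of libraries. Gene order came from RefSeq (ARS-UCD2.0), names only, and 1 neighbour of HIF3A is not reported here. Alternatives changed the size factors, pseudocount, filter, weights, libraries, kind of reads and threshold.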

Additional observations from a re-analysis of the deposited data

Results flagged for a closer look

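A signal outside the gene counts lay above its level in the -4 wkpp libraries, taken as the untreated level: the ERCC spike-ins. They took a mean of 43.2% of exon and spike-in reads at MNEB 1 wkpp and 30.04% at MNEB 16 wkpp, against 5.61% at -4 wkpp, 4.95% at SNEB 1 wkpp and 3.10% at SNEB 16 wkpp. At MNEB 1 wkpp the libraries with shares of 17.3%, 49.5% and 62.7% had 2483, 4834 and 1919 normalised exon counts of HIF3A, in that order. The part of this share in the results was not tested. Groups of 3 libraries are too small for a test of single outlying libraries.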

How the results depend on the processing

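For 14 differences of 5 HIF pathway genes (HIF3A, HIF1A, EPAS1, ARNT2 and EGLN1), 210 repeats under another setting were run. Of these, 198 kept direction and side of the threshold, and 0 reversed. The 0 does not cover the whole gene value of HIF3A in SNEB minus MNEB at 1 wkpp. That value was 0.04 without SNEB 1 wkpp library 2, a turn of sign. HIF3A between -4 and MNEB 1 wkpp ranged from -4.75 to -3.87 on the log2 scale without 1 library, and was -3.75 in whole gene reads. Its call there, and so the count of HIF pathway genes called, was lost (0 instead of 1) with upper-quartile scaling, no filter and voom, and in each of the 6 fits without 1 library (0 to 0). Between -4 and SNEB 1 wkpp the count was 0 to 1 without 1 library, the 1 being HIF3A against the -4 wkpp libraries that chose it, so nothing is read from it. HIF pathway genes called became 1 between SNEB and MNEB at 1 wkpp with all 15 libraries in the fit (HIF1A), and 1 at 16 wkpp with a threshold of 0.05 (HIF1A). Of 135 repeats for HIF targets and regulators, added after the data were seen, 77 kept their call and 0 reversed. Counts over all genes also moved. Between -4 and MNEB 1 wkpp, 313 genes became 1239 with all 15 libraries, 1782 by exon reads alone, 1233 at a threshold of 0.05, and 2 to 417 without 1 library. Between -4 and SNEB 1 wkpp, 9 became 4 with voom, 14 with all 15 libraries, 74 by exon reads alone, 99 at 0.05, and 0 to 194 without 1 library. Between SNEB and MNEB at 1 wkpp, 0 became 425 with all 15 libraries, 353 by exon reads alone, 378 at 0.05, and 0 to 690 without 1 library. At 16 wkpp, 448 became 290 with no filter, 1155 by exon reads alone, 1458 at 0.05, and 41 to 290 without 1 library. Apart from the construction of each setting, the cause was not tested. Within MNEB, within SNEB and for the difference of changes, leaving out 1 library gave 0 to 0. The authors' size factors could not be applied to the difference of changes, since no table holds all 4 groups. No paired analysis was possible because the libraries carry no cow or replicate number. MNEB values rest on the shallowest libraries, and for VHL, ARNT2 and EGLN3 on few reads.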

Other observations

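The other HIF targets did not follow 1 order. GAPDH reached 13247 normalised exon counts in MNEB 16 wkpp library 3, whereas ALDOA was highest in -4 wkpp library 2, at 11115, and ALDOC in -4 wkpp library 1, at 189. PFKFB3, a regulator of glycolysis, had r = 0.75 with HIF3A and ALDOA -0.74. KDR, a receptor of VEGFA, had r = 0.39 with HIF3A, below FLT1, the other receptor, at 0.78. These values are across libraries of shared groups and have no test.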
